A study of Mus musculus with 32 samples.

Results

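Lyz1, Lyz2, Lcn2, Chil1, Cxcl15 and Scd1 are genes that alveolar epithelium uses for host defence and for making lipid, and they were followed here through the loss and restoration of Lkb1 in mouse lung tumors. The members were chosen by name, as the rows of the expression tables that carry these 6 gene symbols among 53558 genes in all. All 6 were found in every library and passed the filter on low counts in every comparison. Lkb1 (gene symbol Stk11) encodes a kinase that suppresses lung tumor growth.

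RNA was sequenced in bulk from neoplastic cells of 32 mouse lung tumor libraries, sorted by flow cytometry after removal of cells that stained for CD45, CD31, F4/80 or Ter119. All mice, controls included, carried Rosa26LSL-tdTomato, a red reporter that Cre switches on, and tumors were started by a lentivirus with Cre given into the trachea. KT tumors had wild-type Lkb1 and were not treated (n = 4). Non-restored and restored tumors carried Lkb1XTR/XTR, a gene trap that Cre turns on to silence Lkb1 and that FLPo-ERT2, a tamoxifen-dependent recombinase made from the Rosa26 locus, can cut out again. The restored tumors had FLPo-ERT2 and were exposed to tamoxifen for 2 weeks in doses of 4 mg (n = 7). The non-restored group (n = 10) pooled 4 tumor libraries that had tamoxifen but no FLPo-ERT2 with 6 that had FLPo-ERT2 but only corn oil vehicle. These 3 groups were collected 24 to 27 weeks after tumor initiation. The methods of the study give a lower dose of virus for the KT mice than for the Lkb1XTR/XTR mice. Virus dose therefore cannot be told apart from Lkb1 genotype in the comparisons with KT. A second set with Trp53flox/flox, in which Cre also deletes Trp53, was collected at 16 to 19 weeks and held 7 non-restored libraries from 4 animals (2 with tamoxifen but no FLPo-ERT2 and 5 with FLPo-ERT2 and vehicle) and 4 restored libraries. Libraries of 1 animal were summed, which left 4 against 4 units in this background and 29 units in all. Trp53 status and weeks since initiation cannot be told apart. Titles of the KT libraries begin with ZR and those of the other Trp53 wild-type libraries with rSP. What these prefixes stand for is not given, and they cannot be told apart from the difference to KT. All restored libraries came from female mice, whereas the other groups held both sexes, and the study describes fewer mice than libraries for some groups, so that some libraries may share a mouse and p-values then measure partly technical spread.

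Library depth ranged from 1302482 to 5943951 expected counts, with 1302482 to 2649449 in KT. The targeted genes followed the labels. Stk11, given in CPM (counts relative to a library total that was scaled between libraries), had a median of 22.6 in KT, 0.369 without restoration and 15.2 with it, and 0.456 without and 11.8 with restoration in the Trp53-deficient set. Markers of alveolar type II (ATII) cells, the surfactant-making cells of the alveolus, were found in all 32 libraries, with none of 10 at 0 and a summed level of 6117 to 112213 CPM. The sum of 13 macrophage markers ran from 9.4 to 1350 CPM and passed 500 CPM in 2 libraries, Restored 1 and Restored 6, in both of which the leading gene was Chil3, a macrophage chitinase-like gene. Chil3 made up 931 of 1350 CPM in Restored 1 and 383 of 609 CPM in Restored 6. Macrophage-rich below stands for this sum, much of which was Chil3. The sum of 7 airway markers passed 1000 CPM in 6 libraries. These were NonRestored 4, NonRestored 8, Restored 4, Restored 5, animal 4 of the Trp53-deficient non-restored group and Restored 3 of the Trp53-deficient group. The mucin gene Muc5b led in each, with 1370 of 1414 CPM in NonRestored 4 and 6577 of 6692 CPM in NonRestored 8. It made up 1030 of 1353 CPM in Restored 4 and 1222 of 1624 CPM in Restored 5. In animal 4 it was 12880 of 13031 CPM, and in the Trp53-deficient Restored 3 it was 1069 of 1342 CPM. Airway-rich below therefore stands for much Muc5b, and whether airway cells were present was not tested. Ly6g, a defining neutrophil marker, was at 0 in all 32 libraries, and the T cell gene Cd3e was at 0 in 31. Other markers of such cells were found. The sum of 11 neutrophil markers ran from 0.685 CPM in a restored library to 156 CPM in a Trp53-deficient restored library, where the single gene Ltf made up 121 CPM. The sum of 6 lymphocyte markers ran from 0 to 2.05 CPM. The fits were repeated without the macrophage-rich and without the airway-rich libraries, a choice made after seeing the data, and every change of a call is given below. The airway-rich libraries were also the lowest of their groups in Lyz2 and Scd1. Leaving them out trims the low values of those genes and narrows their spread, so a smaller p-value there is no further support for a call.

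Lysozyme breaks the cell wall of bacteria. Mice have a pair of neighbouring lysozyme genes, Lyz1, known from Paneth cells of the gut, and Lyz2, known from macrophages and also made by ATII cells. Lipocalin 2, the product of Lcn2, binds the siderophores with which bacteria gather iron. Chil1 encodes a chitinase-like lectin without chitinase activity, which both macrophages and epithelium make, and Cxcl15 encodes lungkine, a chemokine of lung epithelium that draws neutrophils. Scd1 encodes stearoyl-CoA desaturase, which makes monounsaturated fatty acids for the lipids of membranes and surfactant.

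The lysozyme genes lie beside each other on the minus strand of mouse chromosome 10. In the GENCODE M21 annotation of GRCm38, the build of the files, Lyz2 spans chr10:117277331-117282321 and Lyz1 spans chr10:117287797-117292868, with 5475 bases between them. Their coding sequences differed at 22 of 444 bases. How alike they are decides how reads can be told apart, so the second coding exon of each is shown, with the 6 differing bases of 165 in capitals (Lyz1, chr10:117291029-117291193; Lyz2, chr10:117280641-117280805; both on the minus strand, printed 5′ to 3′).
Lyz1: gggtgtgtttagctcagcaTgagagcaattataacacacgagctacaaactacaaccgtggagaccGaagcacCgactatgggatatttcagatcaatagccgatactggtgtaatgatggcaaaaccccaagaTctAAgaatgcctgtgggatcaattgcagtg
Lyz2: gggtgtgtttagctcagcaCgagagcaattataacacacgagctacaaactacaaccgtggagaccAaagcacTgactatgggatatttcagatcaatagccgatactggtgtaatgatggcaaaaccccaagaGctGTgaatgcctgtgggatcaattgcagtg
Exon 1 differed at 14 of 136 coding bases, exon 3 at 0 of 79 and exon 4 at 2 of 64. Of the 1189 windows of 75 bases (the read length) in the Lyz1 transcript, 74 (6.22%) occurred unchanged in the Lyz2 transcript. The RSEM program divides such reads between the genes, and its posterior SD, deposited with the values, was at most 1.35 counts for either lysozyme gene in any library. The SD was 0 in all 32 libraries for Lcn2, Chil1 and Cxcl15 and at most 2.58 counts for Scd1.

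The other members lie apart from each other. Lcn2 is at chr2:32384633-32388252 on the minus strand, Chil1 at chr1:134182176-134190181 on the plus strand, Cxcl15 at chr5:90794534-90803067 on the plus strand and Scd1 at chr19:44394455-44407879 on the minus strand. Only Cxcl15 overlaps another annotated gene, the miRNA gene Gm24322 on the opposite strand. The study examined C/EBP transcription factors in these tumors, and the promoters of 5 members were therefore searched for the C/EBP-type motif TTNNGNAA on both strands. Windows ran from 250 bases before to 50 bases after the gene start in RefSeq on GRCm38, and Scd1 was not among the windows. The motif occurred in 13365 of 32851 windows (40.7%). It was found 1 time in each of 4 members, at -209 in Lyz1, -55 in Lyz2, -216 in Lcn2 and -52 in Chil1, and these letters were not found in the window of Cxcl15. The Lyz1 and Lyz2 windows were 82.5% identical over 302 aligned positions, yet the Lyz1 match aligned with letters of Lyz2 that miss the motif by their last base. The stretch from -250 to -51 of both lysozyme promoters is shown for that difference, with the Lyz1 match and the aligned Lyz2 letters in capitals, and the 250 bases before Chil1 are shown with its match in capitals (Lyz1, chr10:117292919-117293118, minus strand; Lyz2, chr10:117282323-117282522, minus strand; Chil1, chr1:134181906-134182155, plus strand).
Lyz1: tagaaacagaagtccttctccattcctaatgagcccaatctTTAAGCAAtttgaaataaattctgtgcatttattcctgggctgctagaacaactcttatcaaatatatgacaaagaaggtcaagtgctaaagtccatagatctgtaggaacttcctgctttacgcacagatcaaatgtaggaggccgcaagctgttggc
Lyz2: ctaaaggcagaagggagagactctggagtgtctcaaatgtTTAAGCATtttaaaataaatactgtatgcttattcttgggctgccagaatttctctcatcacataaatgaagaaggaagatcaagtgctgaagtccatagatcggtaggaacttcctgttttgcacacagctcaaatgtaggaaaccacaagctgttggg
Chil1: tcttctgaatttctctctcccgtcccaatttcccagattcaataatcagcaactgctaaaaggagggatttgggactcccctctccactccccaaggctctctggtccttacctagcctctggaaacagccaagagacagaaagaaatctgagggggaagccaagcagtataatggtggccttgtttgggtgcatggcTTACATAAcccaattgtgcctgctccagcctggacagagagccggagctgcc
A match describes the letters only, and binding was not measured in these files.

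All members but Lyz1 were among the strongest transcripts of these tumor cells. By median TPM (transcript abundance scaled for gene length, so that genes can be compared) over the 29 units, Lyz2 ranked at place 12 of all genes with 8618 TPM, Cxcl15 at 21 with 4324, Scd1 at 49 with 2145, Lcn2 at 85 with 1383 and Chil1 at 123 with 913. Lyz1 was far lower, at place 4637 with 20.6 TPM. Together the members took between 0.296% of the counts, in the lowest non-restored library, and 5.76%, in the highest restored library.

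**Figure D1:**
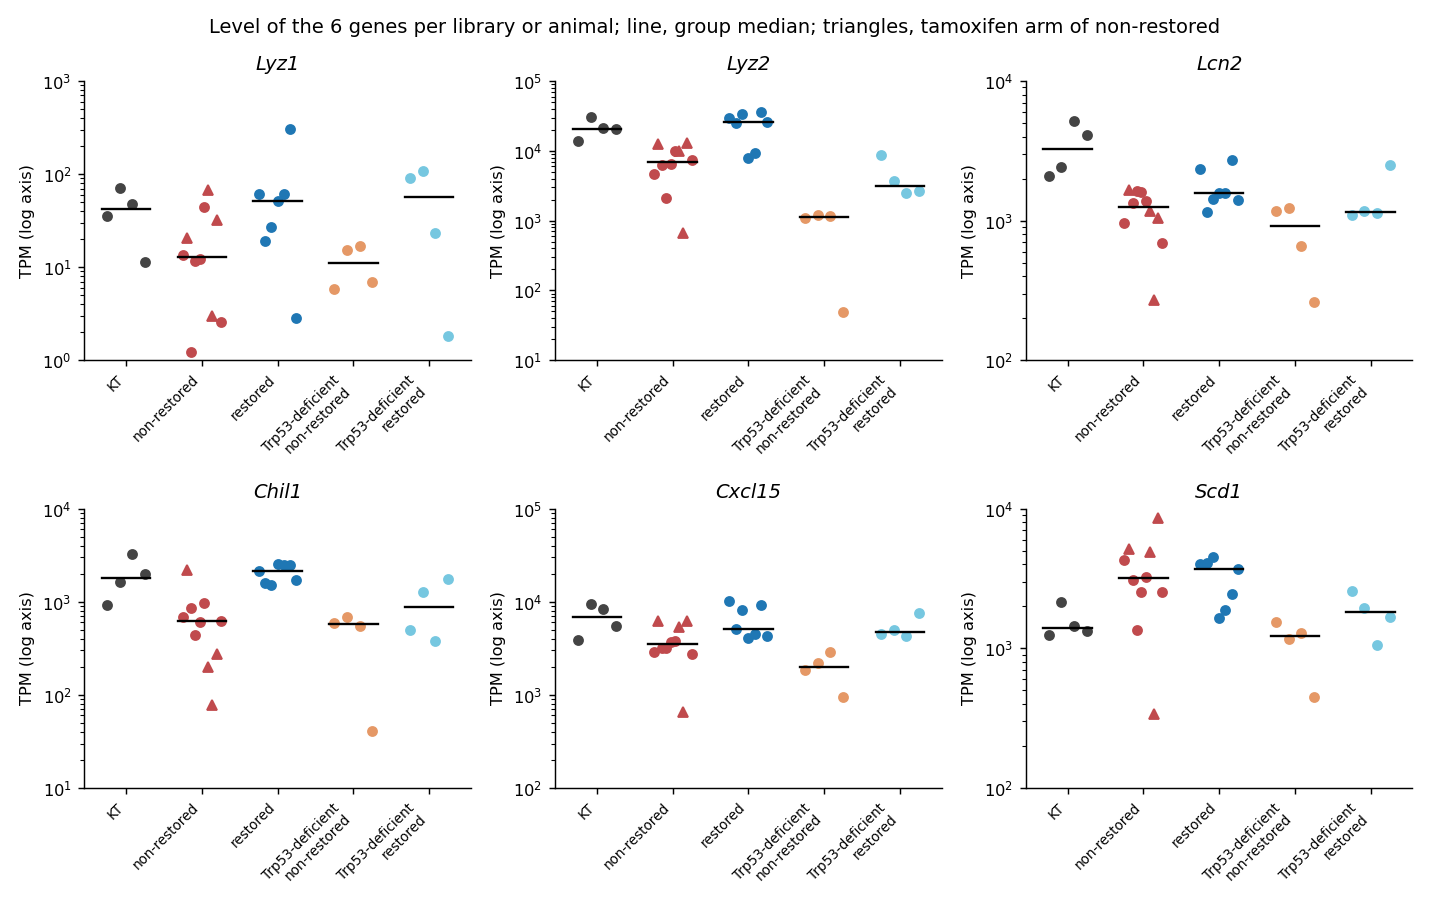
Level of each of the 6 genes in TPM on a log axis (vertical) in the 5 groups (horizontal). Each point is a library, or an animal for the Trp53-deficient non-restored group, lines are group medians, and triangles mark the 4 non-restored libraries with tamoxifen. Lyz2 is highest in KT and restored tumors, with medians of 20726 and 25658 TPM, against 6882 TPM in non-restored tumors and 1127 TPM in Trp53-deficient non-restored tumors.

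The first comparison asks how the genes differ between tumors with the trapped Lkb1 allele and tumors with wild-type Lkb1. Lyz2 and Lcn2 fell in non-restored tumors relative to KT tumors, each to 0.30 of the KT level, and the other members did not pass the test. This made 2 of 6 members called, against 5.86% of 12636 genes tested (741 genes; edgeR's quasi-likelihood test, adjusted p under 0.05). The lower level of a gene in a bulk sample may reflect fewer cells that make it or less RNA of it in each cell, and these cannot be told apart here. Marker lists of other cells also differed between these groups: 4 of 4 endothelial, 6 of 6 fibroblast and 9 of 9 macrophage markers tested had higher values in non-restored tumors (medians of 2.30 and 1.51 on the log2 scale for the first and second list), and 9 of 10 ATII markers had lower values (median -0.57). By edgeR 0 of them passed, and 0, 1, 0 and 3 had an unadjusted p under 0.05. The summed endothelial markers ran from 5.73 to 11.6 CPM in KT and from 1.62 to 106 CPM in non-restored libraries, and the summed fibroblast markers from 14.6 to 82.1 CPM and from 6.73 to 420.0 CPM. Their part in the levels of the members was not tested.

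Lyz2 stood at 12706, 28821, 19486 and 18150 CPM in KT 1 to KT 4. In the 10 non-restored libraries it ran from 588 through a median of 5688 to 10939 CPM. Every non-restored library was below every KT library, so the groups did not overlap, as in 3.91% of the 12636 genes tested (494 genes). The log2 fold change was -1.73 (SE 0.50, adjusted p = 0.0431, edgeR). That call is close to the threshold: it was lost when any of the 4 KT libraries was left out (adjusted p of 0.0729 to 0.126 by edgeR) and when NonRestored 1, 3, 4, 5, 7 or 10 was left out, with the log2 fold change between -1.88 and -1.50 over all such fits. Without the 2 libraries rich in macrophage markers, both restored, the log2 fold change was the same -1.73 with an adjusted p of 0.0554 (edgeR), and without those rich in airway markers it was -1.47 with an adjusted p of 0.00045 (edgeR).

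Lcn2 was 1254, 1470, 3104 and 2339 CPM in KT 1 to KT 4. In the non-restored libraries it ran from 154 through a median of 668 to 875 CPM. Again the groups did not overlap, and the log2 fold change was -1.74 (SE 0.31, adjusted p = 0.00159, edgeR). This call held in all 29 alternatives computed, with adjusted p-values of 1.48e-05 to 0.0369 over them.

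Chil1 was 695, 1244, 2385 and 1498 CPM in KT 1 to KT 4, against 57.0 through a median of 374 to 1480 CPM in non-restored libraries. Only NonRestored 2, at 1480 CPM, was above the KT median, and 9 of the 10 non-restored libraries were below all KT libraries. The log2 fold change of -1.65 (SE 0.50) had an adjusted p of 0.0546 by edgeR and so did not pass. Without NonRestored 2 it was -2.05 with an adjusted p of 0.00687 (edgeR), and without NonRestored 8 it was -1.52 with an adjusted p of 0.0395 (edgeR). DESeq2 called Chil1 with all libraries (-1.64, adjusted p = 0.0174, DESeq2). Cxcl15 was 6163, 15314, 13457 and 8284 CPM in KT and ran from 1000 through a median of 4797 to 8860 CPM in non-restored libraries, and 7 of the 10 were below all KT libraries. Its log2 fold change was -1.03 (SE 0.38, adjusted p = 0.112, edgeR).

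Scd1 did not follow that order, and Lyz1 followed it without passing the test. Scd1 was 4692, 8280, 5505 and 4889 CPM in KT and ran from 1241 through a median of 10982 to 29777 CPM in non-restored libraries, where 7 of 10 were above all KT libraries and 2 were below them. Its log2 fold change was 1.05 (SE 0.52, adjusted p = 0.254, edgeR), and only without the libraries rich in airway markers did it pass among the fits that left out marker-rich libraries (adjusted p = 0.0117, edgeR). Lyz1 was 31.5, 63.0, 42.0 and 9.53 CPM in KT and ran from 1.03 through a median of 9.49 to 51.9 CPM in non-restored libraries. The groups overlapped, and 5 of the 10 non-restored libraries were below all KT libraries (log2 fold change -1.11, SE 0.87, adjusted p = 0.501, edgeR).

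The second comparison asks what 2 weeks of Lkb1 restoration change. Lyz2 rose to 3.56 times the non-restored level, and it was the only 1 of 6 members to pass the test, against 1.87% of 12636 genes (236 genes). The 2 groups overlapped in all 6 members, and 0.578% of the genes tested did not overlap. Chil1 was higher by 3.22 times and just missed the threshold. Lyz1, Lcn2 and Cxcl15 were higher by 3.61, 1.59 and 1.85 times without passing, and Scd1 was at 0.962 of the non-restored level. These comparisons share the non-restored libraries with the comparison to KT, so the opposite directions are not independent of each other.

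**Figure D2:**
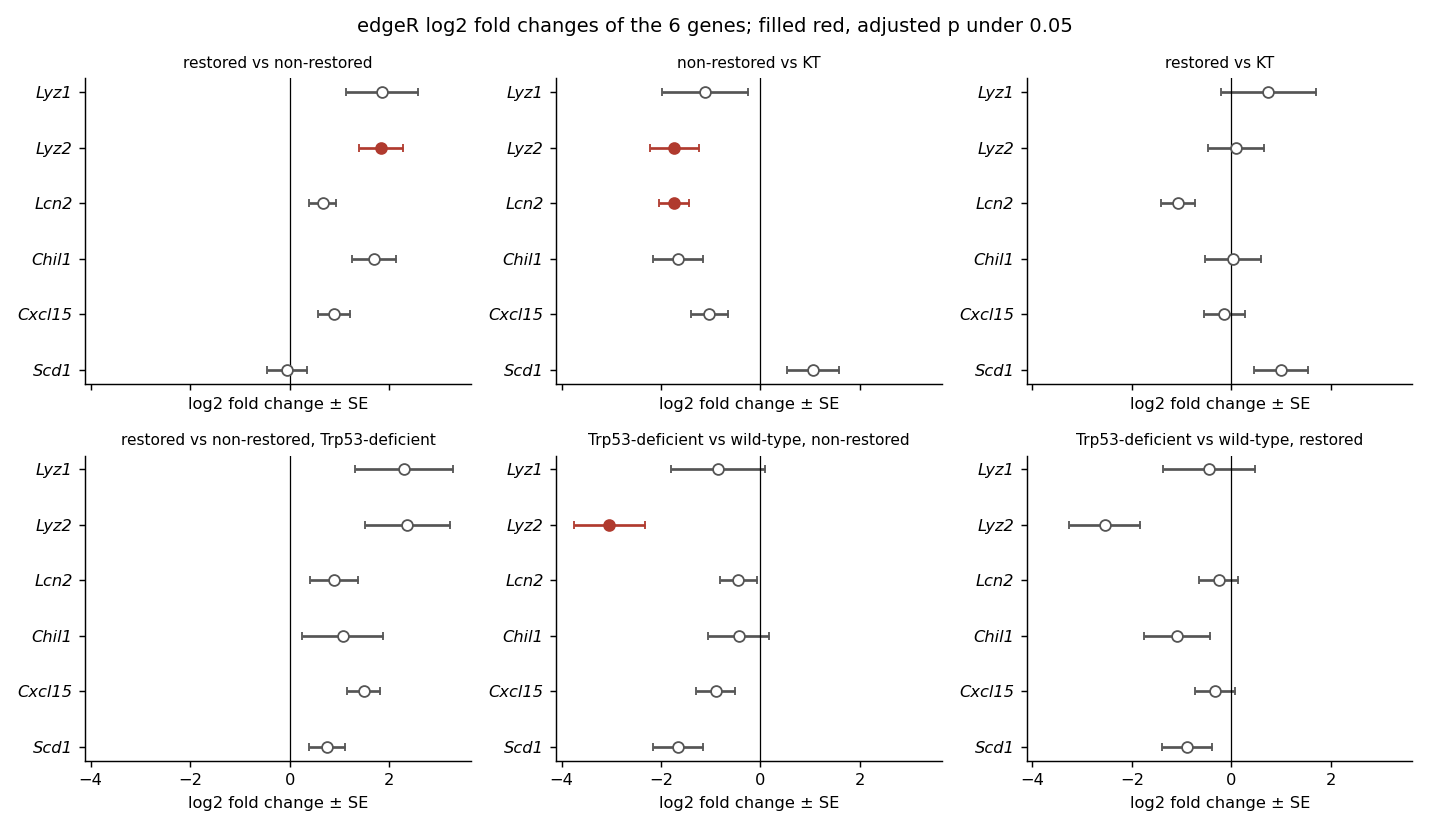
Log2 fold change of each of the 6 genes (horizontal axis, with SE bars) in the comparisons made, one panel each, by edgeR; red points passed an adjusted p of 0.05. The red points are Lyz2 and Lcn2 in non-restored against KT, Lyz2 in restored against non-restored, and Lyz2 in Trp53-deficient against wild-type non-restored tumors.

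Lyz2 in the 7 restored libraries ran from 5879 through a median of 23507 to 31338 CPM. Restored 1, 2, 3, 6 and 7 lay at or above 22983 CPM, above all 10 non-restored libraries, whereas Restored 4 with 5879 CPM and Restored 5 with 7738 CPM lay within the non-restored range. The log2 fold change was 1.83 (SE 0.44, adjusted p = 0.0313, edgeR). Restored 4 and Restored 5 also had airway marker sums of 1353 and 1624 CPM, and their ATII marker sums of 42009 and 50628 CPM were the lowest of the restored libraries.

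The call for Lyz2 depended on single libraries. It was lost without NonRestored 1, 3 or 5 or without Restored 1, 2, 3, 6 or 7, where the adjusted p was 0.0509 to 0.071 (edgeR), and it held in 9 of 17 such fits, with the log2 fold change between 1.69 and 2.00 in all of them. Without Restored 1 and Restored 6, the libraries with macrophage marker sums of 1350 and 609 CPM, the log2 fold change was 1.61 with an adjusted p of 0.155 (edgeR). Restored 7, whose macrophage marker sum of 20.7 CPM was the lowest of the restored group, had 22983 CPM of Lyz2. Restored 5 and Restored 4 came next, with sums of 30.1 and 36.5 CPM, and had 7738 and 5879 CPM of Lyz2. The part of macrophages in these levels was not tested. Without the libraries rich in airway markers the log2 fold change was 1.91 with an adjusted p of 3.83e-05 (edgeR). That fit left out the libraries lowest in Lyz2 of both groups, NonRestored 4 and 8 and Restored 4 and 5, so it is no further support for the call.

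Chil1 was the most even member in the Trp53 wild-type restored libraries. Its 7 restored libraries lay between 1128 and 1805 CPM around a median of 1566 CPM, with a coefficient of variation of 16.7%, against 88.7% in non-restored and 48.4% in KT libraries. In the 4 Trp53-deficient restored libraries it was 69.5%, so that evenness was not found there. All 7 were above 9 of the 10 non-restored libraries, and only NonRestored 2 reached into their range. The log2 fold change was 1.69 (SE 0.44, adjusted p = 0.0513, edgeR), and it was called in 7 of 32 alternatives, DESeq2 among them (adjusted p = 0.00339, DESeq2). Leaving out NonRestored 2 gave 2.10 with an adjusted p of 0.006, and leaving out NonRestored 8 gave 1.56 with an adjusted p of 0.0344 (edgeR). Without the macrophage-rich libraries the log2 fold change was 1.64 (adjusted p = 0.158, edgeR), and without the airway-rich ones it was 1.38 (adjusted p = 0.116, edgeR). In Restored 4 and 5, where Lyz2 was lowest, Chil1 stood at 1649 and 1805 CPM.

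Lcn2 ran from 695 through a median of 847 to 1492 CPM in restored libraries. All 7 were above the non-restored median, but only Restored 1 and Restored 6, the libraries with the most macrophage marker reads, were above all non-restored libraries. The log2 fold change was 0.67 (SE 0.27, adjusted p = 0.234, edgeR), and without those libraries it was 0.37 (adjusted p = 0.679, edgeR). Cxcl15 ran from 5315 through a median of 8275 to 16071 CPM, and here too all 7 were above the non-restored median. Restored 1, 3 and 6 were above all non-restored libraries (log2 fold change 0.89, SE 0.32, adjusted p = 0.18, edgeR). Restored 1 and Restored 6 are the macrophage-rich libraries, and within the 7 restored libraries Cxcl15 and the macrophage marker sum had a Spearman correlation of 0.89, a description over few libraries. Without them the log2 fold change of Cxcl15 was 0.58 (adjusted p = 0.565, edgeR), and without the airway-rich libraries it was 0.94 (adjusted p = 0.0517, edgeR).

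Lyz1 ran from 2.41 CPM in Restored 7 through a median of 36.8 to 244 CPM in Restored 6. That single library was 101 times the lowest and held the most Lyz1 of any library (log2 fold change 1.85, SE 0.72, adjusted p = 0.215, edgeR). Without Restored 1 and Restored 6 the log2 fold change of Lyz1 was 0.63 (SE 0.71, adjusted p = 0.812, edgeR). Scd1 ran from 5089 through a median of 13667 to 17229 CPM and its restored libraries lay wholly inside the non-restored range (log2 fold change -0.06, 95% interval -0.91 to 0.79, adjusted p = 0.974, edgeR). The direction of Scd1 turned in 4 alternatives and when single libraries were left out.

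The non-restored control pooled the 2 arms, so the arms were set against each other. Between them 0 of 6 members were called, against 0.00791% of 12636 genes (1 gene by edgeR), 0 had an unadjusted p under 0.05 and 0 were called by DESeq2. Lyz2 ran from 588 through 9128 (median) to 10939 CPM in the 4 libraries with tamoxifen and from 1683 through 5147 (median) to 8243 CPM in the 6 with vehicle. NonRestored 2, 7 and 9 stood at 10378, 7878 and 10939 CPM and NonRestored 8 at 588 CPM, so the tamoxifen arm held both the highest and the lowest values (log2 difference 0.59, SE 0.57, adjusted p = 1, edgeR). Scd1 was likewise spread, with a log2 difference of 0.78 (SE 0.51, adjusted p = 1, edgeR). Tamoxifen and the absence of FLPo-ERT2 cannot be told apart in this contrast.

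Which arm served as the control changed the calls. Against the vehicle arm alone, Lyz2 (log2 fold change 2.10, adjusted p = 0.0136), Chil1 (1.69, adjusted p = 0.00138) and Cxcl15 (1.13, adjusted p = 0.037) all passed in restored tumors by edgeR. Against the tamoxifen arm alone, with 4 libraries, the log2 fold changes were 1.51 for Lyz2 (adjusted p = 0.345), 1.69 for Chil1 (adjusted p = 0.336) and 0.60 for Cxcl15 (adjusted p = 0.653) by edgeR, and 0 of 6 passed. The SE of Chil1 was 0.69 in that fit and 0.25 with the vehicle arm. All restored libraries were female; among female libraries alone Lyz2 and Chil1 passed.

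The third comparison sets restored tumors against KT tumors. Of the 6 members 0 passed, against 0.459% of 12636 genes (58 genes by edgeR). Only Lcn2 had an unadjusted p under 0.05, and DESeq2 called 0 members. The groups overlapped in all 6, whereas 2.79% of the genes tested did not overlap. Lyz2 differed by 0.10 on the log2 scale with a 95% interval of -1.07 to 1.27, so that a difference of more than 2-fold in either direction lay within the interval. Chil1 differed by 0.04 (-1.14 to 1.21) and Cxcl15 by -0.14 (-0.996 to 0.717).

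Lcn2 was the member that stood lowest relative to KT after restoration. All 7 restored libraries were below the KT median, and 5 of 7 were below all 4 KT libraries (log2 fold change -1.07, SE 0.34, unadjusted p = 0.00452, adjusted p = 0.205, edgeR). Scd1 differed by 0.997 on the log2 scale (SE 0.54, adjusted p = 0.541, edgeR), and 5 of 7 restored libraries were above all KT libraries. Ranked by median TPM, Lyz2 and Chil1 were highest in restored and next in KT tumors, Lcn2 and Cxcl15 highest in KT and next in restored tumors, and Scd1 highest in restored (3694 TPM) and non-restored (3167 TPM) tumors ahead of KT (1389 TPM). None of these neighbours was shown to differ by the test.

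Over all 5 groups, the medians of Lyz2 fell in the order restored (25658 TPM), KT (20726), non-restored (6882), Trp53-deficient restored (3156) and Trp53-deficient non-restored (1127), and only the step from KT to non-restored passed a test between neighbours. Cxcl15 ran in the order KT (6934 TPM), restored (5144), Trp53-deficient restored (4708), non-restored (3476) and Trp53-deficient non-restored (2015). Lcn2 ran from KT (3255 TPM) through restored (1566), non-restored (1258) and Trp53-deficient restored (1159) to Trp53-deficient non-restored (909). Chil1 was at 2127 TPM in restored, 1818 in KT, 883 in Trp53-deficient restored, 618 in non-restored and 573 in Trp53-deficient non-restored tumors. Scd1 stood in Trp53-deficient restored tumors (1810 TPM) above and in Trp53-deficient non-restored tumors (1226 TPM) below KT. Lyz1 was at 56.9 TPM in Trp53-deficient restored, 51.4 in restored, 41.7 in KT and 12.9 in non-restored tumors, and lowest in Trp53-deficient non-restored tumors. For these 5 genes no neighbouring pair of groups that was tested passed, and pairs that differ in both Trp53 and Lkb1 status were not tested.

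In the Trp53-deficient tumors, restoration was tested on 4 against 4 units. Of the 6 members 0 passed, and 0% of 12516 genes did (0 genes by edgeR, 748 at an unadjusted p under 0.05, and 23 genes by DESeq2). Of the members, 3 had an unadjusted p under 0.05 by edgeR, and 1 was called by DESeq2. Lyz2 was 933, 956, 967 and 44.6 CPM in animals 1 to 4 without restoration. After restoration it was 7048, 3023, 2148 and 2383 CPM in the 4 libraries. Summed by animal, the groups did not overlap (log2 fold change 2.36, SE 0.85, adjusted p = 0.804, edgeR).

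Cxcl15 did not overlap either. It was 2690, 3043, 4140 and 1466 CPM without and 6280, 7077, 6342 and 11528 CPM with restoration (log2 fold change 1.49, SE 0.33, unadjusted p = 0.00122, adjusted p = 0.804, edgeR). By DESeq2, Cxcl15 was the only member called (adjusted p = 0.00937, DESeq2). These were 2 of 6 members without overlap, against 3.61% of 12516 genes (452 genes). For Lyz2 this holds only with libraries summed by animal. Library by library, non-restored library 3, from animal 1, had 2374 CPM, above the 2164 CPM of Restored 3. Cxcl15 did not overlap library by library either. Without the airway-rich animal 4 and Restored 3, which left 3 against 3, the log2 fold changes were 2.13 for Lyz2 and 1.33 for Cxcl15 (adjusted p = 0.97 for both, edgeR). Lcn2, Chil1, Scd1 and Lyz1 stood at 0.69, 0.93, 0.65 and 2.40 in that fit, against 0.89, 1.06, 0.75 and 2.30 with all units.

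The other 4 members overlapped. Lcn2 was 643, 645, 353 and 152 CPM without and 580, 633, 625 and 1444 CPM with restoration. Chil1 was 433, 504, 400 and 28.7 CPM without and 352, 896, 264 and 1310 CPM with restoration. In both genes Restored 4 was the highest and animal 4 of the non-restored group the lowest. Scd1 was 5397, 3818, 4475 and 1661 CPM without and 8672, 6713, 3740 and 6102 CPM with restoration. Lyz1 was 4.60, 12.1, 13.6 and 5.91 CPM without and 70.5, 86.6, 18.8 and 1.56 CPM with restoration, so that 3 of 4 restored libraries were above and 1 was below all non-restored animals.

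An interaction term over 25 units asked if restoration had another effect where Trp53 was deleted. Of the 6 members 0 passed, and 0% of 13706 genes did (0 genes by edgeR, 422 at an unadjusted p under 0.05). Of the members 0 had an unadjusted p under 0.05 and 0 were called by DESeq2. The log2 difference between the effects was 0.49 for Lyz2 (95% interval -1.41 to 2.38), -0.66 for Chil1 (-2.52 to 1.21), 0.56 for Cxcl15 (-0.58 to 1.70) and 0.76 for Scd1 (-0.71 to 2.23). The intervals were wide enough to hold differences of more than 2-fold for each of these genes.

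Between the Trp53 backgrounds, Lyz2 was the member that differed most. In non-restored tumors it fell to 0.122 of the Trp53 wild-type level (log2 fold change -3.04, SE 0.72, adjusted p = 0.0402, edgeR), and it was the only 1 of 6 members called, against 0.753% of 13273 genes (100 genes). All 4 Trp53-deficient animals, at 44.6 to 967 CPM, were below 9 of the 10 wild-type libraries, the exception being NonRestored 8 with 588 CPM. The groups overlapped in all 6 members, whereas 0.686% of the genes tested did not overlap. The call was lost without animal 1, 3 or 4 or without any 1 of NonRestored 1, 2, 3, 6, 7, 9 and 10 (adjusted p of 0.0519 to 0.13 by edgeR), with the log2 fold change between -3.20 and -2.64 in all such fits. Without the libraries rich in airway markers, which include animal 4 and NonRestored 8, the log2 fold change was -2.91 with an adjusted p of 6.83e-05 (edgeR), and in that fit 1612 genes of 13404 were called. Without the macrophage-rich Restored 1 and Restored 6 it was -3.04 with an adjusted p of 0.0563 (edgeR).

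In restored tumors 0 of 6 members passed, against 0.445% of 13273 genes (59 genes by edgeR), and 1, Lyz2, had an unadjusted p under 0.05 and was called by DESeq2 (adjusted p = 0.0117). Here too the groups overlapped in all 6 members, whereas 3.19% of the genes tested did not overlap. Lyz2 was at 0.171 of the wild-type level (log2 fold change -2.54, SE 0.71, adjusted p = 0.104, edgeR), and 3 of 4 Trp53-deficient libraries were below all 7 wild-type libraries. Without the libraries rich in airway markers it was -2.70 with an adjusted p of 0.000173 (edgeR). Of the other members in non-restored tumors, Scd1 was lower by 1.66 on the log2 scale (adjusted p = 0.0997, edgeR) and Cxcl15 by 0.90 (adjusted p = 0.226, edgeR), and Lcn2 and Chil1 were lower by 0.45 (adjusted p = 0.531, edgeR) and 0.44 (adjusted p = 0.733, edgeR). Without NonRestored 8 the log2 fold changes of Scd1 and Cxcl15 were -1.80 (adjusted p = 0.00966, edgeR) and -1.02 (adjusted p = 0.043, edgeR), and both passed. Without all airway-rich libraries Scd1 stood at -1.66 (adjusted p = 0.00287, edgeR) and Cxcl15 at -0.85 (adjusted p = 0.0987, edgeR). In the same comparison 9 of 10 ATII markers and 8 of 9 macrophage markers had lower values in Trp53-deficient tumors (medians of -0.81 and -1.28 on the log2 scale), of which 0 passed by edgeR and 6 and 0 had an unadjusted p under 0.05, and their part was not tested.

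**Figure D3:**
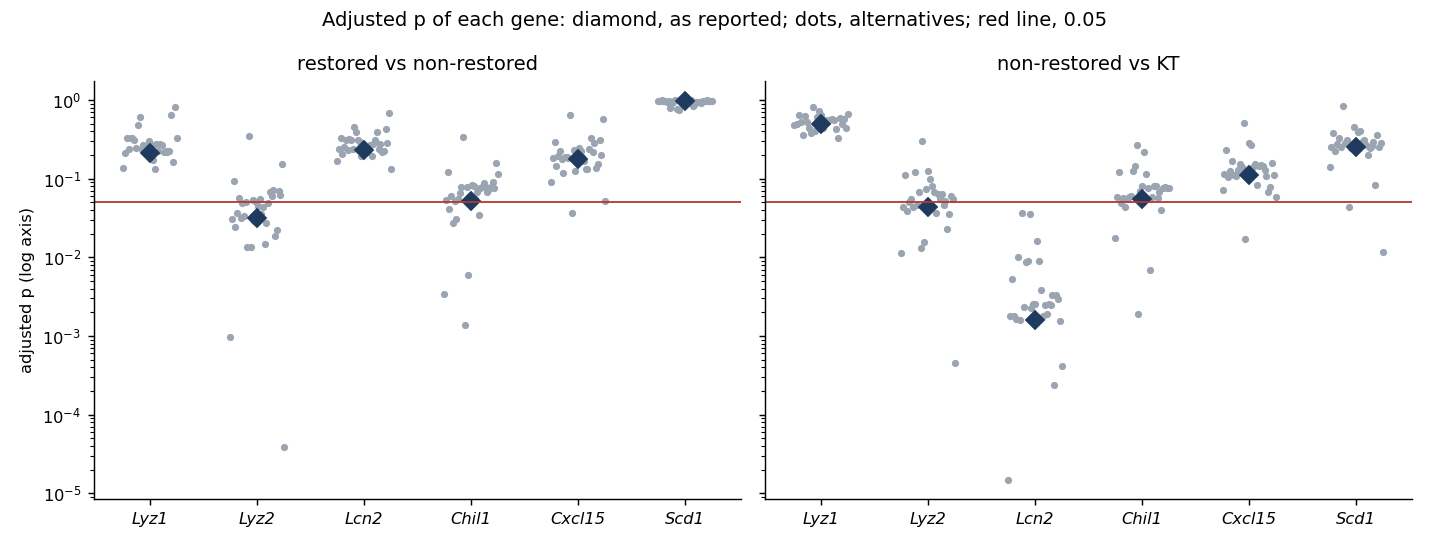
Adjusted p-values (vertical, log axis) of the 6 genes (horizontal), one panel for each comparison named above it. Diamonds are the values as reported, dots are the alternatives computed, and the red line is 0.05. The dots of Lyz2 lie on both sides of the line, from 3.83e-05 to 0.345 for restored against non-restored tumors, whereas all those of Lcn2 lie below it for non-restored against KT tumors.

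Lyz1 made up only a small share of the lysozyme counts. Its share of Lyz1 plus Lyz2 was 0.184% ± 0.0886 (SD, n = 4) in KT, 0.291% ± 0.209 (n = 10) in non-restored and 0.342% ± 0.326 (n = 7) in restored tumors. In Trp53-deficient tumors it was 3.71% ± 5.35 (n = 4) without and 1.18% ± 1.15 (n = 4) with restoration. Counts of Lyz1 were few, from 1.0 to 810 a library, so the shares of the lowest libraries rest on a handful of reads.

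Of the 7 comparisons of this share, 1 passed. The Trp53-deficient non-restored animals ran from 0.492% to 11.7% around a median of 1.32%, and the wild-type non-restored libraries ran from 0.0186% through a median of 0.252% to 0.655% (difference 3.42 percentage points, exact permutation test, two-sided, p = 0.003, adjusted p = 0.021 over 7 comparisons). The value of 11.7% came from animal 4, which had 98 counts of Lyz2 and 13 of Lyz1 (exact Clopper-Pearson 95% interval 6.39% to 19.2%, which covers counting error only). Without that animal the difference was 0.753 percentage points, and without animal 2, 3 or 4 the adjusted p was 0.0734 (exact permutation test). Between the restored tumors of both backgrounds the share differed by 0.835 percentage points (adjusted p = 0.212, exact permutation test), and without Restored 4 of the Trp53-deficient group by 1.21 (adjusted p = 0.0292). The level of Lyz1 itself was at 0.551 of the wild-type level (adjusted p = 0.652, edgeR), against 0.122 for Lyz2, so the higher share went with less Lyz2. With the counts of both genes summed into 1 row, the log2 fold changes were 1.83 for restored against non-restored (adjusted p = 0.0312, edgeR), -1.73 for non-restored against KT (adjusted p = 0.0431, edgeR) and -3.02 for Trp53-deficient against wild-type non-restored tumors (adjusted p = 0.0394, edgeR).

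**Figure D4:**
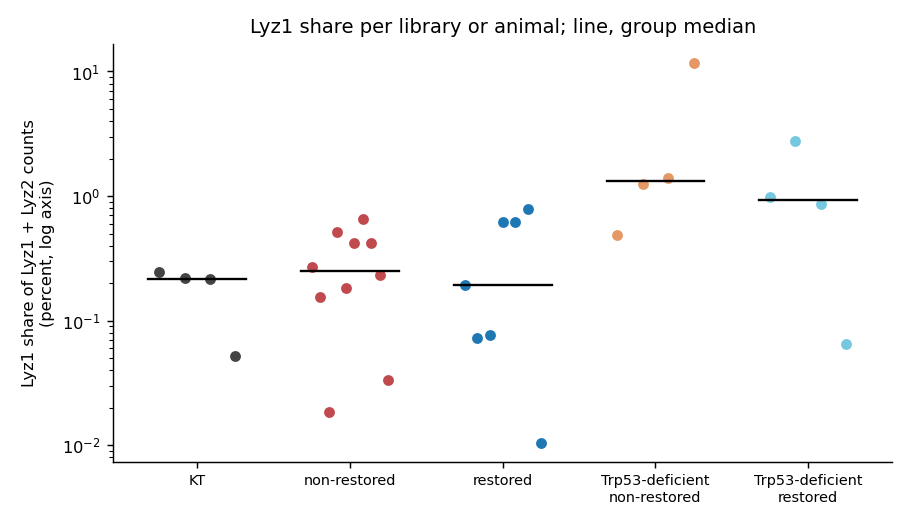
Share of Lyz1 in the counts of Lyz1 plus Lyz2 in percent (vertical, log axis) for each library or animal in the 5 groups (horizontal), with a line at each group median. The Trp53-deficient animals reach 11.7%, whereas no Trp53 wild-type library exceeds 0.794%.

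Libraries with little of one member often had little of the others. NonRestored 8 was the lowest of its group in 5 of 6 members and animal 4 of the Trp53-deficient non-restored group in 5 of 6, Lyz1 being the exception in both. These were also the libraries with the highest airway marker sums of all, 6692 and 13031 CPM, of which Muc5b made up 6577 and 12880 CPM, and their ATII marker sums of 6117 and 8296 CPM were the lowest of all. Over the 29 units, Lyz2 and the ATII marker sum had a Spearman correlation of 0.92, given as a description. Whether units were prepared together is not given in the labels, and the marker sum and Lyz2 share a library total. Within the non-restored libraries the correlation was 0.94 (n = 10) and within the restored libraries 0.64 (n = 7). For the macrophage marker sum it was 0.21 over the 29 units, -0.02 within the non-restored and 0.71 within the restored libraries. For the airway marker sum it was -0.53 over the 29 units, -0.59 within the non-restored and -0.89 within the restored libraries. The part of ATII cells, macrophages or Muc5b-rich cells in the level of Lyz2 was not tested beyond the fits without the marker-rich libraries.

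**Figure D5:**
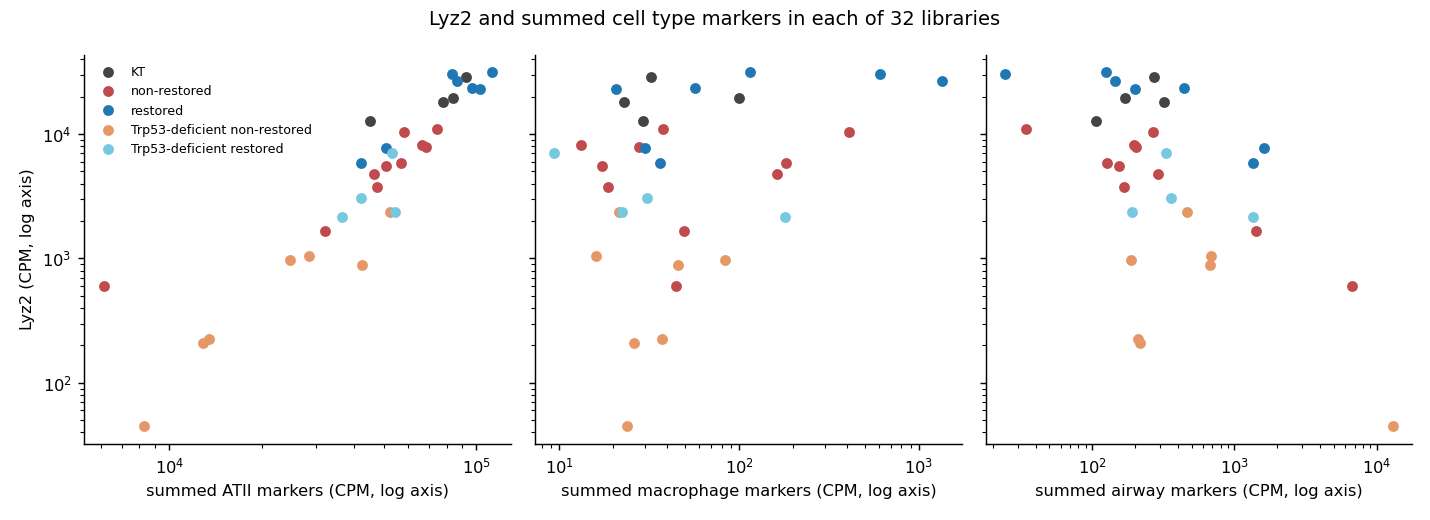
Lyz2 in CPM (vertical, log axis) against the summed level of ATII, macrophage and airway markers in CPM (horizontal, log axes), one point for each of the 32 libraries, coloured by group. Lyz2 rises with the ATII sum, the libraries over 500 CPM of macrophage markers are Restored 1 and Restored 6, and the libraries with the highest airway sums are NonRestored 8 and the library of animal 4 of the Trp53-deficient non-restored group, each the lowest in Lyz2 of its own group.

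The members did not all vary together. Over the 29 units, Lyz2 and Cxcl15 had a Spearman correlation of 0.81, and Lcn2 and Chil1 of 0.79, whereas Lcn2 and Scd1 had 0.13 and Chil1 and Scd1 0.21. Among the 7 restored libraries Chil1 and Scd1 ran in opposite orders (-0.86), as Chil1 did to the ATII marker sum (-0.86), while Scd1 ran with that sum (0.89). Correlations of this kind rest on few libraries, some of which may have been prepared together.

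Other genes of the same families and pathways give the setting. Of 28 innate defence genes of the airways, 18 were tested between restored and non-restored tumors, 13 were higher and 5 lower, and 1 passed, with a median log2 fold change of 0.48 against -0.01 over all genes tested. The gene that passed was Pigr, the receptor that carries polymeric antibodies across epithelium (log2 fold change 4.92, SE 1.01, adjusted p = 0.0131, edgeR). Its restored libraries ran from 2.58 through a median of 5.43 to 382 CPM and its non-restored libraries from 0.798 through 2.89 to 7.18 CPM, so the fold came from a few libraries and the groups overlapped. Without the airway-rich libraries the call was lost (log2 fold change 0.32, SE 0.45, adjusted p = 0.798, edgeR). Wfdc2, which encodes a secreted protein of airway and alveolar epithelium, was 573 to 800 CPM in KT, 291 to 467 CPM in non-restored and 344 to 529 CPM in restored libraries. It fell in non-restored tumors relative to KT (log2 fold change -0.95, SE 0.13, adjusted p = 0.000105, edgeR). Retnla, which encodes a resistin-like protein, rose in the same comparison (log2 fold change 3.23, SE 0.88, adjusted p = 0.0331, edgeR), so of 18 genes tested there 1 was called in each direction.

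Of 17 lipocalin family genes 3 passed the filter. Beside Lcn2, Rbp4, which encodes the carrier of retinol in plasma, rose on restoration (log2 fold change 1.61, SE 0.31, adjusted p = 0.00691, edgeR). It was 30.7 to 64.8 CPM in KT, 0.454 to 15.2 CPM in non-restored and 18.7 to 29.6 CPM in restored libraries, so that none of the 3 groups overlapped another. Relative to KT it fell in non-restored tumors (log2 fold change -2.63, SE 0.34, adjusted p = 7.35e-05, edgeR). Its order of groups, KT, restored, non-restored, was that of Lcn2. Both calls of Rbp4 held without the macrophage-rich libraries (adjusted p of 0.0264 and 0.000212, edgeR) and without the airway-rich ones (3.35e-05 and 6.61e-09).

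Of 13 genes of siderophore and iron handling 11 were tested between restored and non-restored tumors, 9 were higher and 2 lower, and 1 passed (median log2 fold change 0.46). Slc40a1, which encodes the iron exporter ferroportin, rose (log2 fold change 2.24, SE 0.57, adjusted p = 0.0451, edgeR), with levels between 0 and 5.14 CPM in the non-restored and between 3.05 and 31.1 CPM in the restored libraries. This call was lost without the macrophage-rich libraries (1.77, adjusted p = 0.196, edgeR) and without the airway-rich ones (2.30, adjusted p = 0.1, edgeR). In KT it was 8.29 to 94.5 CPM, above all non-restored libraries (log2 fold change of non-restored against KT -4.70, SE 0.62, adjusted p = 9.01e-05, edgeR). In that comparison Hmox1, a heme-degrading enzyme (-1.04, adjusted p = 0.00527), and Fth1, the ferritin heavy chain (-0.73, adjusted p = 0.0195), fell as well by edgeR, which made 3 of 11 called lower and 0 higher. Ferritin genes have many processed copies in the genome, and the division of their reads is uncertain.

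In the chitinase-like family 6 of 10 genes were tested between restored and non-restored tumors, 4 were higher and 2 lower, and 0 passed by edgeR (3 at an unadjusted p under 0.05). The value of Chia1, an acidic chitinase, was 1.89 (log2 fold change, adjusted p = 0.183, edgeR). In Trp53-deficient non-restored tumors Chil4, a chitinase-like gene nearly identical to Chil3 whose reads may be divided between them, rose relative to wild-type tumors (log2 fold change 6.23, SE 1.10, adjusted p = 0.00468, edgeR), with levels between 0 and 13.4 CPM in the wild-type libraries and between 2.94 and 479 CPM in the Trp53-deficient animals. Of 9 CXC chemokines and receptors 7 were tested, 6 were higher and 1 lower on restoration, and 0 passed by edgeR (3 at an unadjusted p under 0.05). Beside Cxcl15, the neutrophil chemokine Cxcl2 stood at 2.21 on the log2 scale (adjusted p = 0.152, edgeR). Pf4, a platelet chemokine gene, fell in non-restored tumors relative to KT (log2 fold change -2.90, SE 0.44, adjusted p = 0.000368, edgeR).

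Of 20 genes of fatty acid synthesis and desaturation, the pathway of Scd1, 16 were tested, 10 were higher and 6 lower on restoration, and 0 passed by edgeR (2 at an unadjusted p under 0.05), with a median log2 fold change of 0.13. Against KT the non-restored tumors gave 9 higher and 7 lower, and 0 passed by edgeR (2 at an unadjusted p under 0.05), with a median of 0.10 against 0.03 over all genes. Between the Trp53 backgrounds in non-restored tumors 5 were higher and 11 lower, and 0 passed by edgeR (9 at an unadjusted p under 0.05), with a median of -0.57 against -0.02 over all genes. Scd1, at -1.66, was below the median of its list in that comparison. Of the 10 ATII markers 0 passed between restored and non-restored tumors by edgeR (3 at an unadjusted p under 0.05), and all 10 had values above 0 (median 0.47 on the log2 scale). The 9 macrophage markers tested also had values above 0 there (median 1.03), and 0 of them passed by edgeR (2 at an unadjusted p under 0.05).

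The genes whose order over the 29 units was most like that of a member were found among 13273 genes by Spearman correlation of log2 CPM. For Lyz2 these were C6 (0.962), Arhgef38 (0.956) and Lpcat1 (0.946), the last of which makes a surfactant phospholipid. For Cxcl15 they were Gm43085 (0.926), which lies 193 bases beyond Cxcl15 on the same strand, Rnase4 (0.904) and Slc39a8 (0.887). For Scd1 they were Wdr6 (0.917), Oat (0.907) and Cyfip2 (0.895). Chil1 ran most like Pla2g1b (0.815), C5ar2 (0.814) and Lcn2 (0.789), and Lcn2 like D3Ertd751e (0.835), Ggcx (0.799) and Atp13a4 (0.791). Lyz1, with its few counts, reached only 0.703 with Tinag, 0.702 with Plpbp and 0.658 with Ogn.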

How the data were processed

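Neoplastic cells from 32 mouse lung tumor libraries were profiled by paired-end RNA sequencing from libraries depleted of ribosomal RNA. The authors aligned reads to mm10 with STAR 2.6.1d and estimated gene abundance with RSEM 1.2.30. The deposited expected counts are unnormalized estimates by RSEM of how many read pairs each gene gave. The TPM values deposited by the authors are scaled for effective gene length and library size. A table of normalized counts and tables of the authors' own DESeq2 comparisons (fold changes and p-values) were not used here, and 0 columns of per-library values were left unmapped.

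Groups came from the labels. An allele that all mice shared is not reported here. Expected counts were rounded, filtered with filterByExpr, scaled by TMM and tested with edgeR's quasi-likelihood test (edgeR 4.0.16, limma 3.58.1, R 4.3.3; Benjamini-Hochberg adjustment over all genes tested, threshold 0.05). The 21 Trp53 wild-type libraries, the 8 Trp53-deficient units, 25 units for the interaction and all 29 units for the comparisons between backgrounds had fits of their own, without covariates. CPM are relative to the TMM-scaled total. Scripts were tested on simulated data. Single values were compared by exact permutation tests. The alternatives were DESeq2 1.42.0, other scalings, filters and samples, limma on log2(TPM + 1) and leaving out each library. Named genes were the 6 members, Stk11 and Trp53 as checks, at most 4 genes of a list with the smallest p on restoration plus those called in a comparison, and the 3 most alike genes of each member. The members and lists were chosen with earlier results of these data known. Promoter sequences are from RefSeq on GRCm38, where 5 of 6 members matched.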

Additional observations from a re-analysis of the deposited data

Results flagged for a closer look

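Libraries far from the rest of their group, by Dixon's test at the 95% level, occurred in 7 of 35 groups of values tested, where chance flags about 1 in 20. Trp53-deficient non-restored animal 4 had 44.6 CPM of Lyz2, with the next animal at 933 CPM, and 28.7 CPM of Chil1, with the next at 400 CPM. In the same animal the share of Lyz1 in the lysozyme counts was 11.7%, with the next animal at 1.39%. NonRestored 8 had 154 CPM of Lcn2, with the next library at 350 CPM, and 1000 CPM of Cxcl15, with the next at 3729 CPM. Both had the highest airway marker sums, as given above. Restored 4 of the Trp53-deficient group had 1444 CPM of Lcn2, with the next library at 633 CPM. KT 4 had a Lyz1 share of 0.0526%, with the next library at 0.216%.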

How the results depend on the processing

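Over 1514 alternative values, 47 changed direction, all of values that did not pass the test. The number of the 6 members called in restored against non-restored tumors, 1 as reported, was 2 with DESeq2, with at least 10 counts in every library and in female libraries, 3 with the vehicle arm alone, and 0 with no filter, with only the 2 groups in the fit, with the tamoxifen arm alone and without the libraries rich in macrophage markers. For non-restored against KT, 2 as reported, it was 1 with no filter, with effective length offsets, in females, with only the 2 groups, with the tamoxifen arm and without the macrophage-rich libraries, 3 with DESeq2, with at least 10 counts in every library and without the airway-rich libraries, and 4 with the vehicle arm. With limma on log2(TPM + 1) Lyz2 lost its calls on restoration (adjusted p = 0.0566) and against KT (0.0555), and Chil1 passed in both (0.0271 and 0.0436, limma). For Trp53-deficient against wild-type non-restored tumors, 1 as reported, it was 2 with DESeq2 and without the airway-rich libraries and 0 with no filter and without the macrophage-rich libraries. For the restored tumors of both backgrounds, and for restoration in Trp53-deficient tumors, 0 as reported, it was 1 with DESeq2, and for the former also 1 without the airway-rich libraries. Among all genes, restoration gave 236 calls as reported, 467 with DESeq2, 50 with the tamoxifen arm alone, and 111 and 606 without the macrophage-rich and airway-rich libraries. The comparison with KT gave 741, and 132 in females, 280 with the tamoxifen arm and 1350 without airway-rich libraries; restored against KT gave 58 and 168 with DESeq2. Trp53-deficient against wild-type tumors gave 100 without restoration, 481 with DESeq2 and 1612 without airway-rich libraries, and 59, 213 and 1267 with restoration. Leaving out 1 library gave 0 to 2 members called on restoration, 1 to 3 in the comparison with KT and 0 to 3 for Trp53-deficient against wild-type non-restored tumors. The summed lysozyme genes, 1.83 as reported, were 1.83 with no filter (adjusted p = 0.0919, edgeR) and 1.51 with the tamoxifen arm (adjusted p = 0.345, edgeR). The cause of these changes was not tested, and the fits with 1 arm also held fewer samples.

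Directions turned as follows, on the log2 scale. Lyz1 was -0.25 under the replicate block and -0.49 without macrophage-rich libraries for restored against KT, -0.18 with limma for the interaction, and 0.80 without macrophage-rich libraries for Trp53-deficient against wild-type restored tumors. Lyz2 for restored against KT was -0.18 in females, -0.21 under the replicate block and -0.12 without macrophage-rich libraries. Chil1 for restored against KT was -0.002 with effective length offsets, -0.28 in females, -0.018 without macrophage-rich and -0.057 without airway-rich libraries, and between the arms 0.002 with DESeq2. Scd1 for restored against non-restored was 0.10 with limma, 0.32 in females, 0.17 with sex as a covariate and 0.31 with the vehicle arm. Lcn2 was -0.062 with Trp53-deficient libraries taken one by one and -0.008 without airway-rich libraries for the interaction, and 0.031 without macrophage-rich libraries for Trp53-deficient against wild-type restored tumors. Cxcl15 for restored against KT was 0.072 without airway-rich libraries.

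With 1 library left out, the values spanned 0 for restored against KT in Chil1 (-0.18 to 0.39), Lyz2 (-0.051 to 0.343), Lyz1 (-0.28 to 1.13) and Cxcl15 (-0.32 to 0.082), for restored against non-restored in Scd1 (-0.19 to 0.20), for the interaction in Lyz1 (-0.14 to 1.43), Lyz2 (-0.044 to 0.671) and Lcn2 (-0.22 to 0.42), between the arms in Chil1 (-1.89 to 0.36) and Lcn2 (-0.551 to 0.066), and for Trp53-deficient against wild-type restored tumors in Lyz1 (-0.995 to 0.591). The Lyz1 share differed by -0.0246 to 0.106 percentage points between restored and non-restored tumors and by -3.61 to 0.133 in Trp53-deficient tumors. Replicate numbers did not pair the samples: correlations of same-numbered deviations ran from -0.048 to 0.475, and libraries did not all correlate best with their own number. Under the replicate block 1 member was called on restoration, 3 in the comparison of non-restored tumors with KT, where Scd1 was added (log2 fold change 0.95, adjusted p = 0.0434, edgeR), and 0 between restored and KT tumors. Depth limits Lyz1 most, with as few as 1.0 counts in a library.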

Other observations

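Libraries of 1 Trp53-deficient animal differed among themselves. The 3 non-restored libraries of animal 1 had 226, 208 and 2374 CPM of Lyz2, 498, 522 and 935 CPM of Lcn2, 269, 284 and 760 CPM of Chil1, and 0.302, 1.09 and 12.7 CPM of Lyz1. The third was highest in every member and had an ATII marker sum of 52183 CPM, against 13430 and 12927 CPM in the others. The 2 libraries of animal 2, labelled Bulk and T1, had 884 and 1056 CPM of Lyz2 and 730 and 230 CPM of Chil1. The higher library was not the same for both genes.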
